A study of Mus musculus with 4 samples.

Results

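Macrophages labelled as lacking Ezh2 were compared with wild-type macrophages after 2 h of lipopolysaccharide (LPS), a bacterial cell wall component. The comparison used 2 of the 4 RNA-seq libraries, labelled KO LPS and WT LPS. A gene entered when it had at least 50 expected counts in at least 1 of these libraries, which 7899 of the 14852 genes listed in either table did; a gene missing from a table was set to 0. The other 6953 genes had fewer counts and were not compared. An expected count is the estimated number of reads from a gene, and a read that matches several genes is divided among them. FPKM is that number scaled to gene length and library size, so it is a share of the library and can be compared between genes of different length. The fold used is log2 of (FPKM + 1) in KO LPS over (FPKM + 1) in WT LPS, which understates the folds of low genes.

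The cells were bone marrow-derived macrophages of C57BL/6 mice. Marrow was taken from the leg bones of adult animals and grown over 5 days in M-CSF conditioned medium, whose growth factor turns marrow precursors into macrophages. WT cells came from wild-type mice. KO cells, whose genotype label is EZH2-/-, came from mice with floxed Ezh2 and lysmcre, a Cre recombinase driven by the lysozyme M promoter, which is active in macrophages and also in granulocytes. The floxed exons are not named in the labels, which also do not say whether the WT mice carried Cre or how many animals were used. Each genotype was either left untreated (NT) or given LPS over 2 h, and the untreated libraries, WT NT and KO NT, are given beside the LPS libraries as a separate pair. With 1 library in each group the differences below lack a replicate check, and no test was run. Ratios of KO to WT FPKM carry exact 95% Clopper-Pearson intervals computed from the counts. These intervals cover counting error only, since reads amplified by PCR are not independent molecules, and they say nothing of the spread between cultures or animals.

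Ezh2 is the methyltransferase of Polycomb repressive complex 2 (PRC2), which places methyl groups on lysine 27 of histone H3 at silent genes. In macrophages LPS is sensed by Toll-like receptor 4. The receptor signals through MyD88 to NF-kB and MAP kinases, which switch on cytokine and chemokine genes, and through TRIF to IRF3, which switches on interferon beta. Secreted interferon beta then acts back on the same cells through its receptor and so induces the antiviral interferon-stimulated genes.

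Ezh2 (chr6:47530274-47595270, GRCm38) was low in all 4 libraries, and lower in the KO library of each state. It measured 2.84 FPKM in WT NT, 2.06 in KO NT, 2.52 in WT LPS and 1.29 in KO LPS. The LPS values rest on 38 and 18 counts and give a KO to WT ratio of 0.512 (0.275 to 0.919). The untreated values rest on 43 and 31 counts. Their ratio was 0.725 (0.442 to 1.18), so the untreated difference is within counting error. With so few counts Ezh2 is not among the 7899 genes, and its level does not measure the share of deleted alleles. Its paralog Ezh1, an alternative methyltransferase of the complex, stood at 6.13 FPKM in WT LPS against 7.85 in KO LPS. Lyz2, whose locus carries this Cre, stood at 18.8 and 22.4 FPKM. Its counts were fractional, from reads divided with other genes, so this level is less certain. The libraries held 5635004 expected counts in WT LPS, 5237782 in KO LPS, 5678451 in WT NT and 5668826 in KO NT. All 12 macrophage markers were measured, and their summed level was 9939 FPKM in WT LPS against 9486 in KO LPS. Defining markers of other cell types were scarce in the LPS libraries: B cell markers summed to 0.99 FPKM in WT and 0.76 in KO, mast cell markers to 0.59 and 0.51, and dendritic cell markers to 5.25 and 5.35. T or NK cell markers summed to 6.13 and 10.1 FPKM, most of it Cd4, with Cd3e, Cd3g and Ncr1 at 0. Erythroid or megakaryocyte markers summed to 64.5 and 67.9 FPKM, nearly all of it Pf4, and osteoclast markers to 16.9 and 23.7. Neutrophil and fibroblast markers, which differed between the genotypes, are given with the results below.

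After LPS the KO library held less RNA of interferon beta, of interferon-stimulated genes and of inflammatory cytokines and chemokines, and more RNA of Il10, Sbno2, Pfkfb3, some CD300 receptors and most measured DNA replication genes. At least 2-fold higher in KO LPS were 41 genes, 0.519% of those measured, and at least 2-fold lower were another 41, again 0.519%. The median fold of all 7899 genes was 0.07 on the log2 scale. After scaling both libraries to a median ratio of 1, 29 genes lay at least 2-fold above and 57 at least 2-fold below, so the share of higher genes moved from 50% to 33.7%. The bulk of the transcriptome lay within narrow bounds: differences of at least 1.5-fold were found upward in KO LPS for 279 genes and downward for 195, and differences of at least 3-fold for 5 and 6. The weakest member on the low side was Ccl7 at a log2 fold of -1.002, and the first gene outside was 9930111J21Rik1 at -0.999. On the high side the weakest member was Dtx2 at 1.003, and Etv3 lay just outside at 0.98. Counting intervals of the KO to WT ratio lay above 1 for 1989 genes (25.2%) and below 1 for 922 (11.7%). Folds were above 0 for 62.3% of genes and below 0 for 37.6%. The median KO to WT ratio of FPKM was 1.06. Measured against that ratio, intervals lay above it for 1318 genes (16.7%) and below it for 1332 (16.9%). Counts of intervals in the lists below are against 1, to be read beside 25.2% above and 11.7% below for all genes. Those against the median ratio are added where they differ enough to matter.

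The lower and higher sets differed in their level. Median levels of the 41 lower genes were 43.4 FPKM in WT LPS against 19.2 in KO LPS, and 32 of them had at least 10 FPKM in WT LPS. Medians of the 41 higher genes were 3.45 FPKM in WT LPS against 9.34 in KO LPS, and 20 had at least 10 FPKM in KO LPS. For all 7899 measured genes the median was 13.8 FPKM (WT LPS) and 14.7 FPKM (KO LPS). A level of 10 FPKM or more was reached by 4747 of them in the WT LPS library, by 4920 in KO LPS. Of the lower genes 38 were annotated as protein coding, of the higher genes 37, and of all measured genes 7739. Counts were fractional for 18 of the 41 lower and 14 of the 41 higher genes. Among all 7899 measured genes 1568 had fractional counts, a smaller share than in either set. Fractional counts show reads divided with other genes and make the values of such genes less certain. All 82 genes had a count ratio in the same direction as their fold, and for none of the 78 with a length in both LPS tables did that length differ by more than 1.2-fold.

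**Figure D1:**
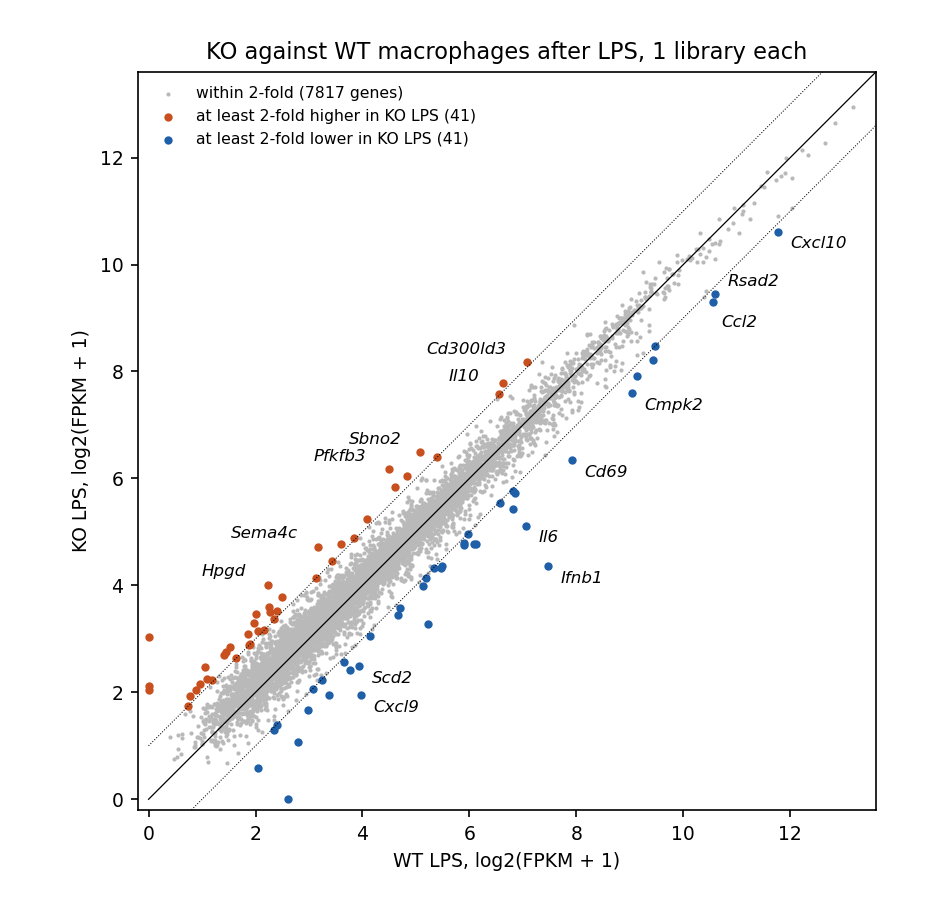
Level of each of the 7899 measured genes in WT LPS (horizontal axis) and KO LPS (vertical axis), both as log2(FPKM + 1), 1 library each. The solid line marks equal levels and the dotted lines 2-fold; the 41 lower genes reach from Cxcl10 and Rsad2 at the top of the range down to genes of a few FPKM, and most of the 41 higher genes lie below 10 FPKM in WT LPS.

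Interferon beta stood at the head of the lower genes. Ifnb1 (chr4:88522025-88522794) was not listed in either untreated library, reached 177 FPKM in WT LPS against 19.5 in KO LPS, from 744 and 76 counts. The KO to WT ratio was 0.110 (0.0857 to 0.139), the lowest ratio of a gene detected in both LPS libraries. Its receptor pathway was not lower as a whole. Of 22 measured genes of interferon, its receptors, JAK-STAT and IRF factors, 7 had intervals below 1 and 8 above 1, with a median log2 fold of 0.07. Those below included Irf7, the factor that amplifies interferon production, at 371 FPKM in WT LPS against 232 in KO LPS, and Stat2 at 62.5 and 44.3. At the other end was Stat5a, a transducer of growth factor and cytokine receptors, with 27.9 FPKM in WT LPS against 49.3 in KO LPS; untreated it stood at 8.55 and 8.63.

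The antiviral interferon-stimulated genes were lower almost throughout. All 36 genes of the list were measured: 6 were at least 2-fold lower and none 2-fold higher, and 33 had intervals below 1 against 11.7% of all genes. Their summed level was 5150 FPKM in WT NT, 3837 in KO NT, 10297 in WT LPS and 6343 in KO LPS. The median log2 fold was -0.47 with LPS and -0.35 without it, beside 0.07 and 0.01 for all genes. Cmpk2 (chr12:26469117-26479837), a mitochondrial nucleotide kinase, measured 75.4 FPKM in WT NT, 46.5 in KO NT, 526 in WT LPS and 193 in KO LPS. Isg20, an exonuclease that degrades viral RNA, measured 25.8, 12.6, 67.2 and 26.2 FPKM in the same order. Both were lower in KO in each state, and KO LPS stayed below WT LPS by ratios of 0.366 (0.352 to 0.381) for Cmpk2 and 0.391 (0.321 to 0.473) for Isg20. Rsad2, which encodes viperin, an enzyme that makes a chain-terminating nucleotide, stood at 97.7 and 51.4 FPKM untreated and 1544 and 694 with LPS. Ifit2, a protein that binds viral RNA, stood at 202 and 121 FPKM untreated and 689 and 298 with LPS. Ifit3 followed at 291 and 212 untreated and 557 and 241 with LPS. Zbp1, the Z-nucleic acid sensor, was lower to the same extent in both states: 110 and 68.8 FPKM untreated, 136 and 85.2 with LPS.

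Many antiviral genes are switched on through a sequence called the interferon-stimulated response element. The letters of its core, GAAA, then any 2 bases, then GAAA again, were searched on both strands in RefSeq promoter windows of GRCm38.p6, each from 250 bases before to 50 bases after a gene's start. They occurred in 1079 of 27025 genes with a window (3.99%) and in 274 of the 6376 measured genes that had a window (4.30%). Only 30 of the lower genes had a window, and 6 of these held the letters (20%). The 6 include Ifit3, Ifit3b and Ifit1bl1, which lie in the same gene cluster. Of these Ifit3 and Ifit3b are near-copies with almost the same promoter letters, so the 6 are not independent. In the antiviral list the letters occurred in 16 of 29 genes (55.2%), and in guanylate-binding proteins and immunity-related GTPases in 8 of 9 (88.9%). Among the 2-fold higher genes 1 of 29 held them (3.45%, Fosl2), and none of 17 NF-kB genes did. The 5 lower genes with these letters and the largest folds are shown to let the spacing of the element be seen, with its letters in capitals on whichever strand they lie. The windows are chr19:34601919-34602218 (minus strand) for Ifit1bl1, chr10:21881934-21882233 (plus) for Sgk1, chr19:34583279-34583578 (plus) for Ifit3, chr12:26456403-26456702 (minus) for Rsad2 and chr5:92348840-92349139 (minus) for Cxcl10.
Ifit1bl1: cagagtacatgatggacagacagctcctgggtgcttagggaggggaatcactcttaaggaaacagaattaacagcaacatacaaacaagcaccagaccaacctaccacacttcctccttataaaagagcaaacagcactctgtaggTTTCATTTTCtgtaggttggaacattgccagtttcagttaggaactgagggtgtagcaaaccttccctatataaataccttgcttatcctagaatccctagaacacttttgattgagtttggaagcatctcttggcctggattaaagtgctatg
Sgk1: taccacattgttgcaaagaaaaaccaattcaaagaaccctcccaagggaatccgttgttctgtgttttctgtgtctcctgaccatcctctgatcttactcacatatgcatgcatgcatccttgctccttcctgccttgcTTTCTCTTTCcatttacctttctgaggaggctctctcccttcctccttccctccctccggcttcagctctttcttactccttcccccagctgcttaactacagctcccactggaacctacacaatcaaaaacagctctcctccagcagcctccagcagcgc
Ifit3: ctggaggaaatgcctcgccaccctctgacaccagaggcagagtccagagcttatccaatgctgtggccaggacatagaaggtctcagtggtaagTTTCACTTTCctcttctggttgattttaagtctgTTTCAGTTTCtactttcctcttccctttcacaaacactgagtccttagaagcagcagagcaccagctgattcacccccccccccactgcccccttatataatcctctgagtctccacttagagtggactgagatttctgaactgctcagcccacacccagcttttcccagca
Rsad2: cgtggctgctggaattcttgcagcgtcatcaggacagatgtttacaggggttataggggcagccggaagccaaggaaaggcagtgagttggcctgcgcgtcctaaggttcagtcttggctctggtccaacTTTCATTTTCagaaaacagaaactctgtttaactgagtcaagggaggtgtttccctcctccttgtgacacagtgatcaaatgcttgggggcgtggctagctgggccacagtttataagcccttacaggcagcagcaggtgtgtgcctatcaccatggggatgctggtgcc
Cxcl10: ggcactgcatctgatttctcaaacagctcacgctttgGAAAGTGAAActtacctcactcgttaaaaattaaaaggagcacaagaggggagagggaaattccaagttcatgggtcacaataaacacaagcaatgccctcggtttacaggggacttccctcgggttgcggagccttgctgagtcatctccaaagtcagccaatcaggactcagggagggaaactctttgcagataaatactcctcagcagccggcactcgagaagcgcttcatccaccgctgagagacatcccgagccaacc
Counted from the gene start, the first base of the first match lies 104 bases upstream in Ifit1bl1, 111 in Sgk1, 156 in Ifit3, 120 in Rsad2 and 213 in Cxcl10. Ifit3 holds the letters at more than a single place, and for Sgk1 only this window, of several start sites, holds them. Ifit1bl1 has another window with the letters, chr19:34599378-34599677, not shown, where the match lies 23 bases upstream of that start. A match describes letters in a window and does not show that a factor bound there. The looser NF-kB letters, GGG followed by any 5 bases and CC, on both strands and free to overlap other matches, were common everywhere: 25 of 30 lower genes (83.3%), 21 of 29 higher genes (72.4%) and 4669 of 6376 measured genes (73.2%) held them.

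The lower genes included runs of neighbours. Of the 41, 15 lay within 200 kb of another lower gene, in 6 groups, while 5 of the 41 higher genes lay in 2 such groups. The same share was not computed for all measured genes, so these counts have no background. Not every measured gene near a group was lower. Within 200 kb, folds were below 0 for 7 of 7 genes at Ifit2, 3 of 3 at Ccl2, 4 of 8 at Cxcl9 and 6 of 9 at Gm4070. On chromosome 19, Ifit2, Ifit3, Ifit1bl1 and Ifit3b span 34550550 to 34662981. Ifit1bl1, an Ifit1-like copy, was at 14.6 FPKM in WT NT, 6.08 in KO NT, 36.4 in WT LPS and 8.66 in KO LPS. Ifit3b differed from its neighbours before LPS: it stood at 47.01 FPKM in WT NT against 52.4 in KO NT, then at 114 in WT LPS and 52.1 in KO LPS. Ifit3, Ifit3b and Ifit1bl1 had fractional counts, and Ifit3 and Ifit3b are near-copies, so the separate values of all these genes are uncertain. On chromosome 12, Rsad2 and Cmpk2 lie side by side between 26442743 and 26479837, and on chromosome 11 the chemokine genes Ccl2, Ccl7 and Ccl12 between 82035577 and 82103399.

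Guanylate-binding proteins and immunity-related GTPases, enzymes that attack the vacuoles of intracellular microbes, were lower throughout. All 14 measured members had intervals below 1, with a median log2 fold of -0.61 with LPS and -0.35 without. Their summed level was 557 FPKM in WT NT, 419 in KO NT, 1608 in WT LPS and 1063 in KO LPS. Iigp1 was the only 2-fold lower member, at 8.38 and 5.33 FPKM untreated and 39.5 and 19.2 with LPS. Tgtp2 was just short of 2-fold at 94.8 FPKM in WT LPS against 47.3 in KO LPS. Irgm1, a regulator of the family, was lower by less, at 262 and 154. Most of these genes have close copies and fractional counts. Sensors of nucleic acid shared the direction in part: 8 of 14 had intervals below 1 and 2 above. Tlr3, the endosomal receptor for double-stranded RNA, was the 2-fold lower member, at 16.7 FPKM in WT LPS against 7.35 in KO LPS, whereas untreated it stood at 9.89 and 8.82. Aim2, a cytosolic DNA sensor, reversed order between the states, with 12.2 FPKM in WT NT against 17.4 in KO NT but 18.5 in WT LPS and 11.8 in KO LPS. Tlr9, the endosomal receptor for CpG DNA, was higher at 10.9 FPKM in WT LPS against 17.1 in KO LPS. MHC class I and immunoproteasome genes, which present peptides to CD8 T cells, had intervals below 1 in 12 of 14, at a median log2 fold of -0.30, with Psmb10 at 125 FPKM in WT LPS against 87.7 in KO LPS as an example. Other lower genes known to respond to interferon were Batf2, at 35.5 and 16.7 FPKM, Tnfsf10, the death ligand TRAIL, at 7.43 and 3.19, and H2-Q9, a nonclassical class I gene with close copies, at 43.4 and 18.9.

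**Figure D2:**
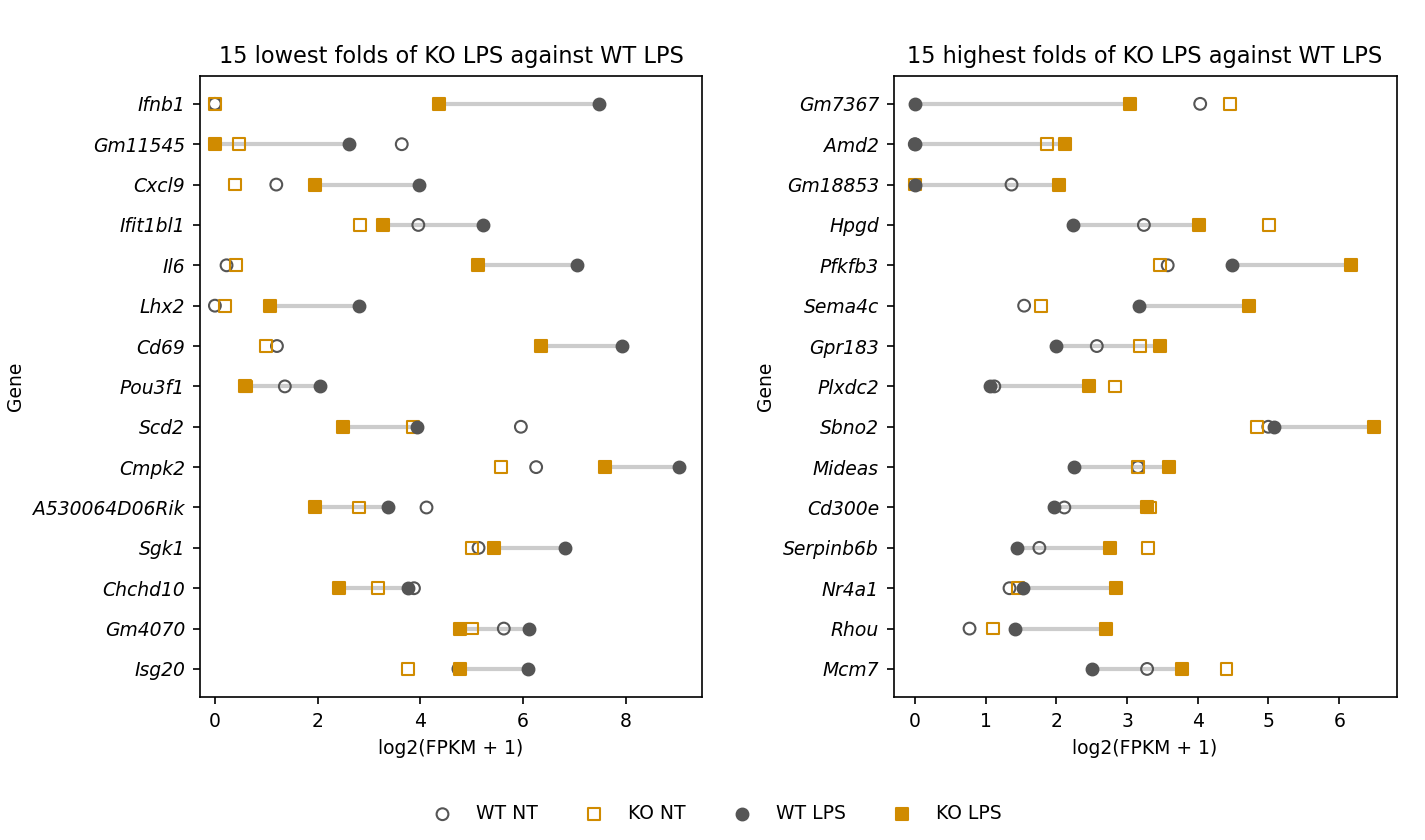
Levels, as log2(FPKM + 1), of the 15 genes with the lowest folds (left) and the 15 with the highest folds (right) in all 4 libraries; circles are WT, squares KO, open symbols untreated, filled symbols LPS, and the grey bar joins WT LPS to KO LPS. Ifnb1, Il6 and Cd69 are low without LPS in both genotypes, on few or no counts, and lie apart with LPS, while Scd2 and Hpgd are apart in both states.

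Inflammatory cytokines were lower as a group, but not without exception. Of 17 measured genes 14 had intervals below 1 and 3 above, and the median log2 fold was -0.70. Il6 (chr5:30013114-30019975), which drives the acute phase response, had 0.17 FPKM in WT NT, 0.33 in KO NT, 132 in WT LPS and 33.8 in KO LPS. Its LPS ratio was 0.256 (0.218 to 0.299), while the untreated values rest on a few reads and allow no comparison. Tnf stood at 4172 FPKM in WT LPS against 2135 in KO LPS, a ratio of 0.512 (0.503 to 0.521), just short of 2-fold on the log scale. Il12b, the p40 chain of IL-12 and IL-23, stood at 240 and 155 FPKM, and Il23a, the p19 chain of IL-23, at 8.97 and 4.12. Csf2, the growth factor GM-CSF, was at 11.7 FPKM in WT LPS against 5.65 in KO LPS, and like Il23a was listed in neither untreated library. Il1b was close to equal, with 2207 FPKM in WT LPS against 2035 in KO LPS, a ratio of 0.922 (0.901 to 0.943). Tnfsf14, the ligand LIGHT, was the only 2-fold higher member, at 2.09 and 5.23 FPKM from 22 and 51 counts. In a bulk library fewer cells that make a cytokine and less RNA per cell cannot be told apart.

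Chemokines of both kinds were lower in their majority, with a few higher. Among CXC chemokines 5 of 8 had intervals below 1 and 1 above, at a median log2 fold of -0.92. Cxcl9 and Cxcl10, which attract T cells through CXCR3 and lie together on chromosome 5, were the 2-fold lower ones. Cxcl9 measured 1.29 FPKM in WT NT, 0.31 in KO NT, 14.7 in WT LPS and 2.87 in KO LPS, and Cxcl10 14.7, 7.04, 3472 and 1568. Their neighbour Cxcl11, annotated as a transcribed pseudogene, lay just short of 2-fold at 17 and 8.09 FPKM with LPS. The neutrophil attractants Cxcl1 (1333 FPKM in WT LPS against 668 in KO LPS) and Cxcl2 (3504 and 1927) were lower too. Cxcl16, a membrane-bound chemokine, was higher at 138 and 164 FPKM. Among CC chemokines 6 of 10 had intervals below 1 and 4 above. The monocyte attractants of chromosome 11 were lower in each state, with ratios further from 1 before LPS; the difference between the states was not tested. Ccl2 stood at 70.0 FPKM in WT NT against 8.11 in KO NT, a ratio of 0.116 (0.0797 to 0.164), and at 1496 in WT LPS and 629 in KO LPS, a ratio of 0.420 (0.401 to 0.440). Ccl7 stood at 35.4 and 3.76 FPKM untreated and 712 and 355 with LPS, and Ccl12 at 4.50 and 1.04, then 94.4 and 45.7. Higher in KO LPS were Ccl24, which recruits eosinophils, at 4.26 and 10.5 FPKM, and Ccl22, which recruits regulatory lymphocytes, at 18.9 and 34.8. Fibroblast or stromal markers were also lower in KO: the 10 summed to 8.39 FPKM in WT NT, 5.52 in KO NT, 10.3 in WT LPS and 5.44 in KO LPS, none at 0 in an LPS library. Only Col1a1 and Col1a2 had enough counts to be measured, and both had intervals below 1. Pdgfrb, with fewer counts, was higher in KO with LPS, at 0.91 and 1.22 FPKM. The part of such cells in the chemokine levels was not tested.

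Other lower genes were not on the interferon lists, and most of those named here had more RNA in WT LPS than in WT NT. Whether interferon acts on them was not tested, and Sgk1 holds the response element letters shown above. Cd69, an early activation marker that retains cells in tissue, was at 1.31 FPKM in WT NT, 0.99 in KO NT, 241 in WT LPS and 80.4 in KO LPS. Sgk1, a serum and glucocorticoid regulated kinase, was at 34.1 and 31.0 FPKM untreated, 111 in WT LPS and 42.0 in KO LPS. For both genes WT and KO were far apart with LPS. Untreated, Sgk1 was close, at a ratio of 0.909 (0.797 to 1.04), while Cd69 had 12 counts in WT NT and 9 in KO NT, too few to compare. Mafk, a small Maf partner of stress-response factors, stood at 44.0 and 19.5 FPKM with LPS, and Areg, an EGF receptor ligand, at 11.5 and 4.94 after being unlisted in both untreated libraries. Lhx2 and Pou3f1, developmental transcription factors, had few reads. Lhx2 was at 5.95 FPKM in WT LPS against 1.11 in KO LPS from 75 and 13 counts, and Pou3f1 at 3.11 and 0.50 from 53 and 8. Lhx2 was the only 2-fold member of the list of developmental factors and cell cycle inhibitors known as Polycomb targets. Of its 30 genes 3 were measured, and all 3 had intervals below 1; 22 more were under 50 counts and 5 were listed in no library. Cdkn1a, a cell cycle inhibitor, stood at 849 FPKM in WT LPS against 738 in KO LPS. Cdkn2a, a widely studied Polycomb target, had 2 counts in KO LPS and none elsewhere.

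Metabolic genes made up a further group that was lower without LPS as well. Cholesterol and fatty acid synthesis genes had intervals below 1 in 16 of 20 and above 1 in none, with a median log2 fold of -0.48 with LPS and -0.79 without. Scd2, a stearoyl-CoA desaturase, measured 61.1 FPKM in WT NT, 13.5 in KO NT, 14.3 in WT LPS and 4.60 in KO LPS. LPS itself went with a lower level in each genotype, and KO stayed the lower in both states. Fads2, a fatty acid desaturase, was the other 2-fold lower member at 8.42 and 3.69 FPKM with LPS, and Fdps, a prenyl diphosphate synthase, stood at 122 and 68.5. NRF2 antioxidant targets had intervals below 1 in 10 of 14 and above 1 in none. Gclm, a subunit of the enzyme that starts glutathione synthesis, stood at 38.04 and 15.8 FPKM untreated and 24.9 and 10.98 with LPS. Prdx1, a peroxidase, stood at 1541 and 873 FPKM untreated and 1367 and 723 with LPS. Integrated stress response genes had intervals below 1 in 5 of 10 and above 1 in none. Ppp1r15a, the phosphatase subunit that ends that response, was at 8.03 and 9.24 FPKM untreated but 170 and 85.7 with LPS. Gdf15, a stress-induced hormone, stood at 558 FPKM in WT LPS against 316 in KO LPS.

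Enzymes of arginine, nitric oxide and itaconate went both ways, with 4 of 10 intervals below 1 and 2 above. Ass1, which makes arginine from citrulline, was at 34.7 and 10.9 FPKM untreated and 24.4 and 9.89 with LPS. Nos2, the inducible nitric oxide synthase, stood at 28.4 FPKM in WT LPS against 18.9 in KO LPS, and Acod1, which makes itaconate, at 2422 and 1854. Higher were Odc1, which starts polyamine synthesis, at 56.2 and 71.0 FPKM, and Slc7a2, an arginine transporter, at 10.4 and 14.6. Against the median ratio 7 of the 10 lay below and 2 above. Chchd10, a mitochondrial protein, had 13.7 and 7.99 FPKM untreated and 12.6 and 4.33 with LPS, and Cpt2, which imports fatty acids into mitochondria, 6.77 and 6.55 untreated but 4.27 and 1.61 with LPS. Oxidative phosphorylation subunits as a list did not share this: 1 of 26 had an interval above 1 and 1 below, at a median log2 fold of -0.01.

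The genes higher in KO LPS differed in their untreated values. The untreated intervals included 1 for 19 of the 41, lay above 1 for 17 and below 1 for 5. For the lower genes the corresponding untreated counts were 12 that included 1, none above and 29 below. Over all measured genes 16.2% had untreated intervals above 1 and 14.2% below, and untreated folds were above 0 for 52.1% and below 0 for 47.6%. Whether a genotype difference itself differed between the states was not tested.

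The interleukin 10 axis held 3 of the genes 2-fold higher with LPS, Il10, Il4ra and Sbno2, and none of these was higher without it beyond counting error. Interleukin 10 is an anti-inflammatory cytokine that acts through STAT3 on the macrophages that make it. Il10 stood at 5.32 FPKM in WT NT, 5.74 in KO NT, 92.9 in WT LPS and 191 in KO LPS, and the LPS ratio was 2.06 (1.87 to 2.26). Il4ra, a receptor chain for IL-4 and IL-13, had 19.9 and 18.7 FPKM untreated and 27.5 and 64.7 with LPS. Sbno2 (chr10:80056992-80106108), a STAT3-induced corepressor, had 30.9 and 27.6 FPKM untreated, a ratio of 0.893 (0.807 to 0.987), and 32.8 and 88.6 with LPS, a ratio of 2.70 (2.50 to 2.92). In WT the Sbno2 level with LPS was close to that without, so the higher level appeared in KO LPS alone among these 4 libraries. Etv3, a repressor induced by IL-10, lay just outside 2-fold at 89.9 and 179 FPKM, and Bcl3, a nuclear NF-kB partner, stood at 60.6 and 113. Of the 18 genes of the list, 3 were 2-fold higher and none 2-fold lower, 12 had intervals above 1 against 25.2% of all genes, 3 lay below, and the median log2 fold was 0.19; 10 lay above and 5 below the median ratio. Socs3, a feedback inhibitor downstream of STAT3, was higher by less, at 573 FPKM in WT LPS against 711 in KO LPS, whereas Socs1, which restrains interferon signalling, was lower at 109 and 64.4.

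Several other genes were higher in KO with LPS and not without it. Pfkfb3 (chr2:11471430-11554071), which makes the activator of the glycolytic enzyme phosphofructokinase, had 10.9 and 10.1 FPKM untreated and 21.5 and 71.1 with LPS, a ratio of 3.31 (3.02 to 3.63). It was the only 2-fold member of 24 glycolysis and hypoxia-responsive genes, of which 10 had intervals above 1 and 6 below, but 8 above and 9 below the median ratio. The hypoxia-responsive Ndrg1 stood at 60.4 and 89.0 FPKM with LPS and Bnip3 at 5.28 and 9.39. Sema4c, a membrane semaphorin, had 1.92 and 2.45 FPKM untreated and 7.99 and 25.4 with LPS. Among 11 semaphorins, plexins and neuropilins 7 had intervals above 1 and none below, or 4 above the median ratio and none below. Sema6d, another of them, was at 0.20 and 0.55 FPKM untreated, with an interval above 1 there too (1.09 to 8.82), and at 2.88 and 6.18 with LPS. Fosl2, an AP-1 subunit, stood at 23.4 FPKM in WT LPS against 56.1 in KO LPS, and Batf, another bZIP factor, at 16.5 and 33.1. AP-1 and ATF factors went both ways, with 5 of 13 intervals above 1 and 5 below (4 above and 7 below the median ratio), as Atf3, a repressor of cytokine genes, stood at 373 and 209 FPKM and Fos at 11.5 and 7.80. Nr4a1, an orphan nuclear receptor, was at 1.89 and 6.17 FPKM from 27 and 82 counts, and its neighbour within 200 kb, Acvr1b, an activin receptor, at 3.82 and 10.3. Rhou, Rnd1, Thbd and Steap4 were further 2-fold higher genes; of these Rnd1 had the highest level, 41.1 FPKM in WT LPS against 83.7 in KO LPS, and was lower in KO without LPS, at 1.85 and 0.78. Dusp1, a phosphatase that switches off MAP kinases, came close to 2-fold, at 247 FPKM in WT LPS against 469 in KO LPS, against 30.8 and 28.2 untreated.

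**Figure D3:**
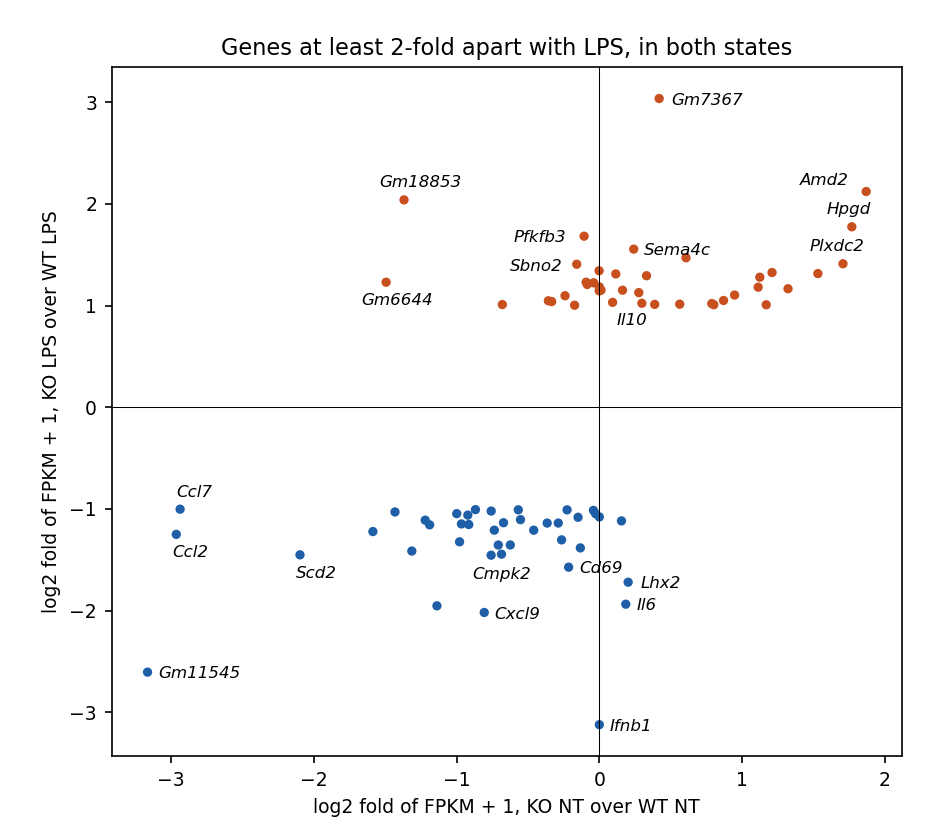
Log2 fold of (FPKM + 1), KO over WT, without LPS (horizontal axis) and with LPS (vertical axis) for the 82 genes at least 2-fold apart with LPS; the axes use separate pairs of libraries. Of the 41 lower genes (blue) 36 lie left of 0, and of the 41 higher genes (orange) 25 lie right of it, among them Hpgd and Plxdc2; Gm18853 and Gm6644 lie in the upper left.

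Genes that were higher in KO in both states included enzymes, receptors and antigen presentation genes. Hpgd, which inactivates prostaglandins, had 8.44 FPKM in WT NT, 31.1 in KO NT, 3.73 in WT LPS and 15.2 in KO LPS, with ratios of 3.69 (2.88 to 4.77) and 4.07 (2.80 to 6.05). Plxdc2, a transmembrane plexin-domain protein, had 1.18, 6.11, 1.08 and 4.53 FPKM in the same order. LPS thus went with a lower or similar level of both genes in each genotype, and KO was above WT either way. Gpr183, an oxysterol receptor that guides cell migration, had 4.95 and 8.06 FPKM untreated and 3 and 10.1 with LPS. Among 14 chemokine and chemoattractant receptors 9 had intervals above 1 and 2 below, and Ccrl2 was among the lower ones at 423 FPKM in WT LPS against 273 in KO LPS. CD300 receptors, paired activating and inhibitory lipid receptors of myeloid cells, had 5 of 8 intervals above 1 and none below. The 3 that were 2-fold higher lie together on chromosome 11 between 115031447 and 115066676. Cd300e measured 3.33 and 9.01 FPKM untreated and 2.90 and 8.77 with LPS. Cd300ld3, with 196 and 378 FPKM untreated and 134 and 288 with LPS, and Cd300ld5, with 127 and 319 and then 97.3 and 219, share reads and are less certain. MHC class II genes, which present antigen to CD4 T cells, had 5 of 8 intervals above 1 and 1 below; H2-Ab1 stood at 106 and 176 FPKM untreated and 107 and 185 with LPS.

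Most measured DNA replication genes were higher too. Of 15 measured S-phase genes 10 had intervals above 1 and 1 below, with a median log2 fold of 0.60 with LPS and 0.53 without, while the level summed over the whole list was 644 FPKM in WT LPS against 624 in KO LPS. Mcm7, a subunit of the replicative helicase, had 8.74 and 20.2 FPKM untreated and 4.66 and 12.7 with LPS. Mcm5 stood at 7.81 and 16.3 FPKM with LPS, and Uhrf1, which couples DNA methylation to replication, at 3.75 and 8.05. Mitotic genes were mostly too low to compare, with 4 of 20 measured, 1 interval above 1 and none below. Over all genes 25.2% had intervals above 1 and 11.7% below. Most neutrophil markers were higher in KO LPS as well. The 12 markers summed to 383 FPKM in WT NT, 652 in KO NT, 415 in WT LPS and 565 in KO LPS, and none was at 0 in an LPS library. All 5 that were measured had intervals above 1: S100a8 at 127 FPKM in WT LPS against 176 in KO LPS, S100a9 at 183 and 247, Ngp at 61.5 and 83.0, Ltf at 13.5 and 21.4 and Camp at 13.64 and 20.7. Among the markers with fewer counts, Ly6g and Cebpe were lower in KO LPS and the rest higher. Ly6g stood at 1.18 FPKM in WT LPS against 0.69 in KO LPS, and Cebpe at 1.02 and 0.16. The part of such cells in the higher genes was not tested.

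The lists of upstream signalling genes held no member 2-fold apart; Tlr3 was counted with the nucleic acid sensors above. Of 21 Toll-like receptors, adaptors and IRAK kinases 8 had intervals above 1 and 2 below, or 7 above and 4 below the median ratio. Beside these and the counts that follow, 25.2% of all genes had intervals above 1 and 11.7% below. Against the median ratio the shares of all genes were 16.7% above and 16.9% below. The TRIF pathway adaptors Ticam1 and Ticam2 were on the higher side, at 17.4 FPKM in WT LPS against 25.9 in KO LPS, and at 16.6 and 25.8, and Traf6 stood at 7.77 and 8.18. Of 20 NF-kB subunits, inhibitors and feedback genes 11 had intervals above 1 and 3 below, while against the median ratio 7 lay above and 6 below. Nfkbia, the inhibitor that NF-kB itself induces, stood at 791 FPKM in WT LPS against 932 in KO LPS, and Tnip3, another inhibitor, at 163 and 287. PRC2 subunits other than Ezh2 had 5 of 9 intervals above 1 and none below, at a median log2 fold of 0.24, or 3 above the median ratio and none below. Suz12 stood at 12.8 and 16.2 FPKM and Jarid2 at 18.6 and 23.7. Phf1 was the only member with a fold below 0, at 4.86 and 3.66 FPKM, a ratio of 0.753 (0.507 to 1.11). Kdm6b, a demethylase that removes the PRC2 mark and is induced by LPS, stood at 16.1 and 20.5 FPKM, where 2 of 11 PRC1 and demethylase genes had intervals above 1 and 1 below. Cytosolic ribosomal proteins had 23 of 38 intervals above 1 and none below, at a median log2 fold of 0.12, but only 8 above and 1 below the median ratio.

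**Figure D4:**
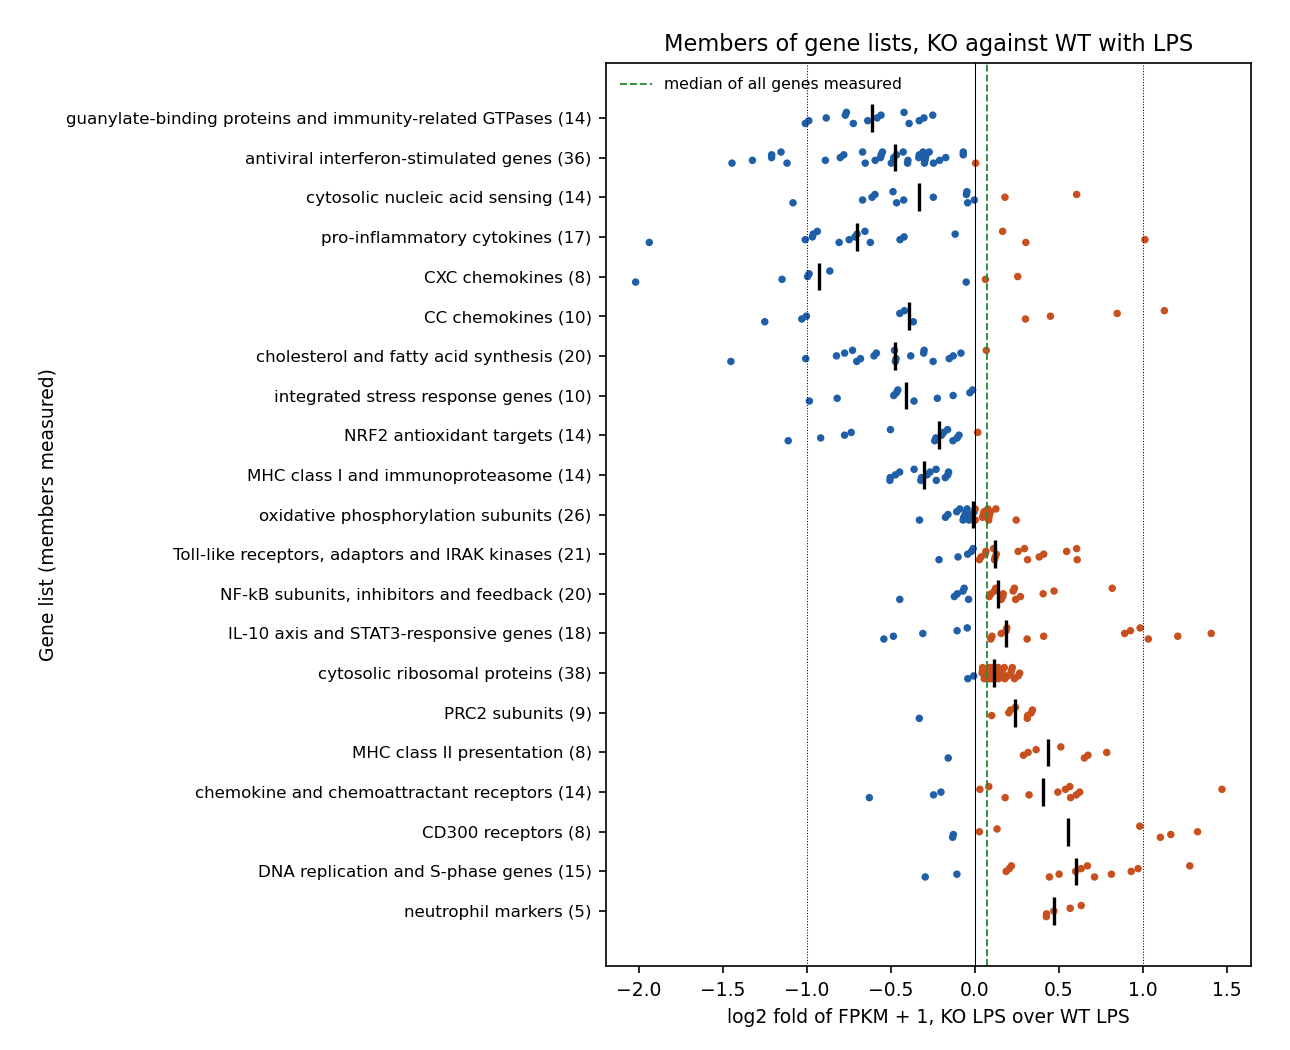
Log2 fold of (FPKM + 1), KO LPS over WT LPS, for the measured members of 21 gene lists, 1 dot a gene, with the number measured in brackets and the list's median as a black bar. The green line is the median of all measured genes, the dotted lines mark 2-fold, and members of the interferon-responsive lists lie left of 0 almost throughout, while CD300 receptors and S-phase genes lie mostly to the right.

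Some of the largest folds belong to genes whose reads are hard to place. Gm11545 had 11.4 FPKM in WT NT, 0.39 in KO NT and 5.08 in WT LPS and was not listed in KO LPS, at least 24.1-fold lower against a floor of 3 counts per library. Among the higher genes Gm7367, Amd2 and Gm18853 were not listed in WT LPS and had 7.20, 3.35 and 3.11 FPKM in KO LPS, at least 18.8-fold, 20.3-fold and 25.6-fold higher against the same floor. Gm7367 was present without LPS, at 15.4 FPKM in WT NT against 20.9 in KO NT, while Amd2 was listed in the KO libraries only, at 2.65 FPKM without LPS. All 4 had fractional counts, so reads shared with other genes bear on these values and the bounds are uncertain. Serpina3f, Serpina3g, Gm4070, Gm18852 and Pnp2 on the lower side share this limit.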

How the data were processed

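RNA of 4 macrophage libraries was sequenced on an Illumina HiSeq after Trizol extraction and a column cleanup, per the labels' protocols. Bowtie, RSEM and the mm10 genome were used, per the submitters' processing notes; for versions, annotation and strand setting, the sources used here give nothing. The expected counts and FPKM are the authors' deposited values per gene. The deposited gene length, another column, was used only to check the scale. Between 78.7% and 79.4% of expected counts per library were exactly whole as deposited. FPKM is a share of a library, so high genes lower the share of others. Of 15935 gene IDs, 15897 matched a symbol in a RefSeq table of GRCm38.p6, the assembly mm10 denotes, which also gave positions and promoter windows.

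A gene was kept where 1 of the 2 LPS libraries had at least 50 expected counts for it, folds were taken with a pseudocount of 1 FPKM, and a gene missing from a table was set to 0. Intervals are exact (Clopper-Pearson, 95%) on counts rounded to whole numbers. Lower or higher bounds against 0 use a floor of 3 counts per library. With 1 library in each group, no test was run. Named were Ezh2, Ezh1 and Lyz2, genes at least 2-fold apart (with full values for the 15 highest and 15 lowest), up to 6 members per list with the largest folds, and a fixed set of cytokine, feedback and regulator genes; some genes this rule names are not reported here. The members, the 43 gene lists, the 9 marker lists and the rules were chosen with earlier results of these data known. Alternatives were other pseudocounts, other count filters, median-ratio scaling, CPM and, chosen after seeing the data, 3 counts in place of 0. The folds, intervals and counts were run on simulated data with known folds. Those data held counting error only, without shared reads, PCR copies or spread between cultures, so they check the code alone. Tools were Python 3.11.15, numpy 2.4.6, pandas 2.3.3, scipy 1.17.1 and matplotlib 3.10.9.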

Additional observations from a re-analysis of the deposited data

Results flagged for a closer look

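In Gm6644 and Gm18853, annotated as transcribed pseudogenes, the KO library lay at least 2-fold above WT with LPS and at least 2-fold below WT without it. The log2 fold of Gm6644 was 1.23 with LPS and -1.49 without, with 2.62 FPKM in WT LPS, 7.49 in KO LPS, 9.61 in WT NT and 2.77 in KO NT. The log2 fold of Gm18853 was 2.04 with LPS and -1.37 without. Only WT NT, at 1.58 FPKM, and KO LPS, at 3.11, listed it. The difference between the states was not tested, each library is a single sample, and both genes had fractional counts.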

How the results depend on the processing

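The counts of genes past 2-fold depended on how low genes were treated. Against 41 higher and 41 lower, a pseudocount of 0.1 FPKM gave 83 and 63, a pseudocount of 5 FPKM gave 10 and 22, and no filter gave 150 and 116. A filter of 20 counts gave 65 higher and 52 lower, one of 200 counts 13 and 31, and CPM 65 and 52. Median-ratio scaling gave 29 and 57, and 3 counts in place of 0, chosen after seeing the data, gave 41 and 41. The share of higher genes among all past 2-fold ran from 29.5% with 200 counts to 56.8% with the pseudocount of 0.1. None of the 82 genes changed sign under the 8 alternatives, and 31 stayed at least 2-fold apart under every alternative they passed. Of 50 list medians 46 kept 1 sign; the others, all near 0, were the BCL-2 family, interferon and JAK-STAT genes, mitotic genes and erythroid markers. No paired analysis was possible because each group has 1 library, so the groups share a single replicate number and no test was run. With 1 library a group the spread between cultures is unknown, and genes of under 50 counts, Ezh2 among them, were not compared.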

Other observations

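Of 8 purinergic and adenosine receptor genes 5 had counting intervals above 1 and 1 below, at a median log2 fold of 0.42. Adora2b, an adenosine receptor, stood at 3.55 FPKM in WT NT, 2.02 in KO NT, 15.2 in WT LPS and 26.3 in KO LPS, and P2ry2, a receptor for ATP and UTP, at 11.5, 6.47, 54.2 and 84.0. Both were lower in KO without LPS and higher with it; that difference was not tested. Kruppel-like factors had 6 of 8 intervals above 1 and 2 below, but 3 above and 2 below the median ratio of all genes; the lower ones were Klf4 and Klf2, at 4.16 and 2.24 FPKM and at 5.98 and 3.59 in WT LPS and KO LPS. Of 9 Myc and Mxd network genes 4 had intervals above 1 and 1 below, with Myc at 6.79 FPKM in WT LPS against 12.8 in KO LPS and its antagonist Mnt at 2.45 and 4.16. Of 8 mRNA decay regulators 5 lay above 1 and 1 below, with Zfp36l1 at 28.0 and 40.6 FPKM.

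Among lipid genes, LXR targets had 7 of 15 intervals above 1 and 2 below, or 7 above and 5 below the median ratio. The nuclear receptors Nr1h3, which encodes LXR alpha, and Pparg stood at 9.37 and 17.02 FPKM and at 17.2 and 28.3 in WT LPS and KO LPS, and Lpl, lipoprotein lipase, at 605 and 932. Prostaglandin genes had 6 of 11 intervals above 1 and 1 below; Ptges, a prostaglandin E synthase, was at 0.91 FPKM in WT NT, 0.24 in KO NT, 7.20 in WT LPS and 12.4 in KO LPS. Of 12 heat shock chaperones 1 had an interval below 1 and none above, while 6 lay below the median ratio and none above. Inflammasome genes had 2 of 12 above 1 and 2 below, or 1 above and 5 below the median ratio. BCL-2 family genes had 2 of 12 above and 1 below, with Bcl2l1 at 49.3 FPKM in WT LPS against 76.7 in KO LPS. Lysosomal genes had 4 of 20 above and 10 below, and costimulatory and adhesion ligands 4 of 12 above and 5 below, or 2 above and 7 below the median ratio. Over all genes 25.2% had intervals above 1 and 11.7% below, and 16.7% lay above and 16.9% below the median ratio.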
